A study of Mus musculus with 3 samples.

Results

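Transcripts of 35 centromere and kinetochore genes were followed in RAW264.7 cells, a mouse macrophage line derived from a tumor induced by Abelson murine leukemia virus. The genes were taken by symbol from the deposited table of 46078 genes and comprise the CENP proteins, the NDC80, MIS12 and SKA complexes with their partners, and the factors that load CENP-A. Each of the 35 symbols was found once, and none was lost to the filter of at least 100 reads summed over the libraries. They were split by role into 18 constitutive centromere genes and 17 outer kinetochore genes. The groups were cells given 0.5 mM hydroxyurea (HU) together with gold nanocages, cells given 0.5 mM HU, and control cells. RNA was taken at 12 hours from cells of passages 10 to 15 grown with 10% serum. Each group is 1 library, so no difference below has a replicate check and no p-value was computed. Neither the nanocage dose nor any vehicle of the control cells is stated in the sources used here.

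The kinetochore is the protein structure that ties a chromosome to spindle microtubules. Its base is chromatin that carries CENP-A, a histone H3 variant that marks the centromere and is deposited by HJURP with the help of the MIS18 proteins. A constitutive network of CENP proteins sits on this chromatin through the cell cycle, and the outer kinetochore, with the MIS12, KNL1 and NDC80 complexes, assembles on it for mitosis. The SKA complex joins at microtubule attachment. The fibrous corona, with the kinesin CENP-E and the large coiled-coil protein CENP-F, lies outermost. Many of these genes are transcribed mostly late in the cell cycle, whereas HU starves DNA replication of nucleotides and holds cells in S phase.

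Promoter sequence is shown for the 7 members that were at least 1.5-fold lower in HU than in control. It is also shown for the 3 members whose counting interval lay above control. Cenpw is not shown: its ratio of HU over control, 1.20, was above the 1.17 of Zwint, but its interval included 1. Each run spans 120 bases before to 30 bases after the RefSeq start on GRCm38.p6, the assembly also called mm10, and reads 5′ to 3′ on the strand of the gene. Capitals mark matches, on either strand, to TTTGAA (the CHR, or cell cycle genes homology region, known to be bound by MuvB complexes), CCAAT (the NF-Y box), and GCGGGAA or TTTGGCG (E2F-like cores). The 7 lower members are given first, from the lowest ratio upward.
Cenpf, chr1:189688057-189688206, minus strand: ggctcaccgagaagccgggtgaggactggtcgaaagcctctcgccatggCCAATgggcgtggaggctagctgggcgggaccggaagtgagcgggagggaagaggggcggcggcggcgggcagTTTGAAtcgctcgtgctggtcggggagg
Cenpl, chr1:161070647-161070796, plus strand: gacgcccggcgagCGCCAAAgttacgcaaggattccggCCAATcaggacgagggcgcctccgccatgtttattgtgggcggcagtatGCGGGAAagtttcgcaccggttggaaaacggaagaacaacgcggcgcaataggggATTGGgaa
Cenpe, chr3:135212443-135212592, plus strand: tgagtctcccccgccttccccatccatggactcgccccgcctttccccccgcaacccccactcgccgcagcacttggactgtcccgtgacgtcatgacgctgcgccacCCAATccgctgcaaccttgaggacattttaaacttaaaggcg
Cenpa, chr5:30666766-30666915, plus strand: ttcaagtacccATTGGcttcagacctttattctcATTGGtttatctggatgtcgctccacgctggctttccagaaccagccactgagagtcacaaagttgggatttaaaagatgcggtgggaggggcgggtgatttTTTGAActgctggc
Ska2, chr11:87109141-87109290, plus strand: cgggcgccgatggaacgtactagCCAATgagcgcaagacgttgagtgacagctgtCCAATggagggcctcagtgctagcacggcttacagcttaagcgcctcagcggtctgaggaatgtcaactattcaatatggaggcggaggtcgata
Spdl1, chr11:34833612-34833761, minus strand: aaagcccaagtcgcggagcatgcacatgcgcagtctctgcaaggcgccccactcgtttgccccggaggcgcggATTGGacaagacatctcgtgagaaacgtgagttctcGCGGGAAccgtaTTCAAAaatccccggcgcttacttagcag
Cenpc1, chr5:86065554-86065703, minus strand: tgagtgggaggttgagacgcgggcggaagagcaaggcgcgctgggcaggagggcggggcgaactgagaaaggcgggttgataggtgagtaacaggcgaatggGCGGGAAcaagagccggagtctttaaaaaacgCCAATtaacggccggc
The 3 members with intervals above control follow.
Cenpu, chr8:46551949-46552098, plus strand: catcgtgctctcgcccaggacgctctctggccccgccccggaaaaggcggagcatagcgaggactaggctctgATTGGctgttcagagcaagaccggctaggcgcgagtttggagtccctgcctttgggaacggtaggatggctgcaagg
Cenpm, chr15:82244307-82244456, minus strand: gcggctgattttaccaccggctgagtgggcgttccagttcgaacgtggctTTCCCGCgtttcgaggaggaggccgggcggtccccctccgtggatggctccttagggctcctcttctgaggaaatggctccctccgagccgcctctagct
Zwint, chr10:72654726-72654875, plus strand: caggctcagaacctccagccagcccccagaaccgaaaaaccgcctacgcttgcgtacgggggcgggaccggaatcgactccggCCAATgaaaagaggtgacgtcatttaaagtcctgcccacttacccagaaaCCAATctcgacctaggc

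The libraries held 18644333 reads in HU plus nanocages, 20057329 in HU and 14990564 in control, so 1 read stood for 0.0536, 0.0499 and 0.0667 CPM (the count scaled to the summed reads of its library) in that order. Of 10 macrophage markers, 9 had a mean of at least 1 FPKM (CPM per kilobase of exonic gene size), while none of 16 T cell, B cell, fibroblast, and granulocyte or mast cell markers did, with 0.24 FPKM as their highest value. Mrc1 was the macrophage marker listed at 0 in each library. Cdkn1a, a p53 target whose product p21 halts the cell cycle, had a CPM ratio of HU over control of 6.54. The 35 genes took 36033 reads in HU plus nanocages, 37551 in HU and 35279 in control.

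These genes were expressed at modest levels in every library. Levels ran over 1.57 to 44.5 FPKM in HU plus nanocages, 1.53 to 44.6 FPKM in HU and 3.91 to 46.9 FPKM in control, with medians of 12.7, 12.4 and 15.2 FPKM in that order. Cenpb, which encodes a centromere protein that binds the CENP-B box of satellite DNA, had the highest level in each library. The lowest was Cenpl in HU plus nanocages and in HU, and Cenpu in control. FPKM divides by the deposited exonic size of the gene, which is the same in each library and cancels in a ratio.

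**Figure D1:**
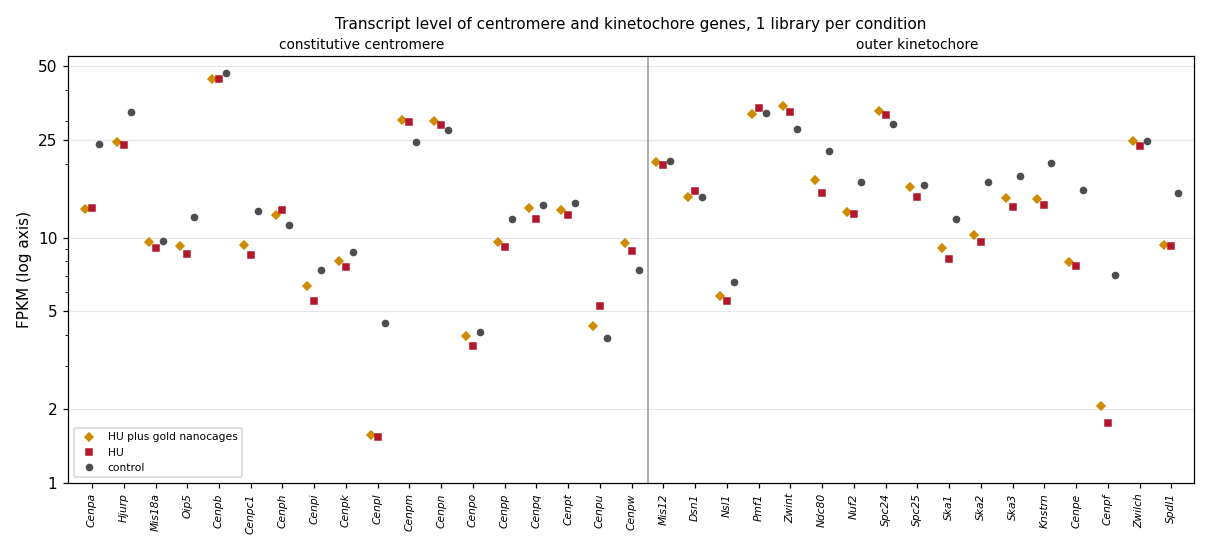
FPKM on a log axis for each of the 35 genes, with constitutive centromere genes on the left and outer kinetochore genes on the right. Each point is 1 library; Cenpl, Cenpf, Cenpe and Cenpa show the control point far above the others, whereas Cenpb, Mis12, Pmf1 and Zwilch have all 3 points close together.

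HU against control addressed what the drug does to these transcripts. Kinetochore genes were mostly lower in HU, but unevenly: Cenpf, Cenpl, Cenpe and Cenpa stood well below control, the MIS12 complex was level with it, and Zwint, Cenpm and Cenpu were slightly above. Of 35 genes, 7 (20%) were at least 1.5-fold lower in HU, beside 2.40% of the 10793 genes with at least 100 summed reads. None was at least 1.5-fold higher, beside 4.17% of all genes. At 2-fold, 3 were lower, beside 0.630% of all genes. The 95% counting interval of the CPM ratio, which covers counting error only, lay below 1 for 21 members (60%, beside 20.5% of all genes) and above 1 for 3 (8.57%, beside 19.4%). The interval narrows with reads, and members had a median of 2083 summed reads against 2236 for all genes tested. The median log2 ratio was -0.20 for the 35 genes and -0.01 for all genes tested. In RNA from a whole culture, fewer cells in late cell cycle phases and less RNA per cell cannot be told apart.

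Among the genes of CENP-A and its loading, Cenpa was the lowest. Cenpa had 13.1 FPKM in HU plus nanocages, 13.2 FPKM in HU and 24.1 FPKM in control. The treated libraries thus lay close together and well below control, and Cenpa was 1.83-fold lower in HU than in control (95% counting interval 1.71 to 1.95). Hjurp, the CENP-A chaperone, had 24.6 FPKM in HU plus nanocages, 23.9 FPKM in HU and 32.6 FPKM in control, and was 1.36-fold lower in HU (1.31 to 1.43). Oip5, which encodes MIS18-beta, had 9.23, 8.58 and 12.1 FPKM in the same order and was 1.41-fold lower in HU (1.2 to 1.65). It shares 9.67% of its exonic bases with Nusap1 on the opposite strand. Nusap1 had 977 reads in HU plus nanocages, 966 in HU and 1212 in control, and the part of this overlap in the Oip5 ratio was not tested. Mis18a, the partner of Oip5 in the MIS18 complex, was almost level, at 9.61, 9.09 and 9.67 FPKM in the same order. Its ratio of HU over control was 0.940 (0.825 to 1.07). These subunits of the loading machinery thus did not share a ratio, and the Cenpa level per unit of Hjurp level was 0.534 in HU plus nanocages, 0.554 in HU and 0.740 in control, a pair chosen after its values were seen. Cenpb was near control, with 44.5 FPKM in HU plus nanocages, 44.6 FPKM in HU and 46.9 FPKM in control.

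The 13 members of the constitutive network did not all go the same way. In HU against control 6 had intervals below 1 (46.2%, beside 20.5% of all genes). The 2 with intervals above 1 (15.4% of the 13) were no larger a share than the 19.4% of all genes. Itgb3bp, Apitd1 and Stra13, which encode the network proteins CENP-R, CENP-S and CENP-X, are not members and are left out of these shares. Itgb3bp had a ratio of HU over control of 1.29 (1.07 to 1.57) and Apitd1 one of 1.19 (1.02 to 1.40), both with intervals above 1. Stra13 had a ratio of 1.05 (0.954 to 1.16). The median log2 ratio of the 13 was -0.18. Cenpl was the exception on the low side, with 167 reads in HU plus nanocages, 175 in HU and 384 in control, or 1.57, 1.53 and 4.5 FPKM. The gene, at chr1:161070713-161086724 on the plus strand, was 2.94-fold lower in HU than in control (2.45 to 3.53). CENP-L forms a dimer with CENP-N, which recognises the CENP-A nucleosome, and Cenpn was not lower: it had 29.8 FPKM in HU plus nanocages, 28.8 FPKM in HU and 27.6 FPKM in control. Its ratio of HU over control was 1.04 (0.949 to 1.15). The Cenpn level was 19.0 times that of Cenpl in HU plus nanocages, 18.8 times in HU and 6.13 times in control, another pair chosen after its values were seen.

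Cenpc1, which encodes CENP-C, the scaffold between CENP-A chromatin and the MIS12 complex, was the other network gene at least 1.5-fold lower. It had 9.33 FPKM in HU plus nanocages, 8.49 FPKM in HU and 12.8 FPKM in control, and was 1.51-fold lower in HU (1.38 to 1.65), just past the 1.5-fold line. The CENP-H, CENP-I, CENP-K and CENP-M proteins form 1 unit of the network, and their genes went different ways. Cenpi was 1.34-fold lower in HU (1.2 to 1.5), at 6.37 FPKM in HU plus nanocages, 5.52 FPKM in HU and 7.40 FPKM in control. Cenpm had 30.1, 29.7 and 24.4 FPKM in the same order and was 1.21-fold higher in HU (1.08 to 1.37). Cenph had 12.3, 13.0 and 11.2 FPKM, with a ratio of 1.16 (1.00 to 1.34), and Cenpk had 8.0, 7.60 and 8.75 FPKM, with a ratio of 0.869 (0.729 to 1.04). Both of these intervals include 1.

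The CENP-O, CENP-P, CENP-Q and CENP-U proteins, with CENP-R, form another unit, needed for recovery from spindle damage. Cenpu had 295 reads in HU plus nanocages, 382 in HU and 212 in control, or 4.37, 5.26 and 3.91 FPKM. HU was the highest of the 3 libraries, and Cenpu was 1.35-fold higher there than in control (1.14 to 1.6), the highest ratio of the 35 genes. Its exons share 1069 bases, 26.7% of the exonic bases of Cenpu in GENCODE, with Primpol on the opposite strand, which had 408 reads in HU plus nanocages, 395 in HU and 306 in control. The strand setting of the counting is not given in the sources used here, and the part of this overlap in the ratio was not tested. Cenpo, Cenpp and Cenpq were lower in HU, with ratios over control of 0.877 (0.772 to 0.997), 0.766 (0.627 to 0.937) and 0.882 (0.784 to 0.992). Cenpo also overlaps a gene on the opposite strand, Adcy3, over 19.0% of its exonic bases in GENCODE, and Cenpp overlaps Ippk over 12.3%. For Cenpp the GENCODE exons are longer than the deposited exonic size of 1101 bases, so the share within the counted exons is not known. In the DNA-binding histone-fold unit, Cenpt had 13.0 FPKM in HU plus nanocages, 12.4 FPKM in HU and 13.9 FPKM in control, with a ratio of HU over control of 0.892 (0.775 to 1.03). Its partner Cenpw had 9.48, 8.85 and 7.38 FPKM in the same order, with a ratio of 1.2 (0.985 to 1.46).

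In the outer kinetochore, the MIS12 complex, which bridges the centromere to the microtubule-binding subunits, stayed near control. Mis12 had 20.3 FPKM in HU plus nanocages, 19.8 FPKM in HU and 20.4 FPKM in control, with a ratio of HU over control of 0.970 (0.889 to 1.06). Dsn1 had a ratio of 1.07 (0.969 to 1.17) and Pmf1 a ratio of 1.05 (0.989 to 1.11). Nsl1 was the subunit with an interval below 1, at 5.77 FPKM in HU plus nanocages, 5.51 FPKM in HU and 6.57 FPKM in control, and was 1.19-fold lower in HU (1.06 to 1.34). Zwint, whose protein binds KNL1 and recruits the corona, was higher: it had 34.3 FPKM in HU plus nanocages, 32.5 FPKM in HU and 27.7 FPKM in control. It was 1.17-fold higher in HU than in control (1.11 to 1.24).

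The NDC80 complex, the main microtubule coupler, divided along its 2 dimers. Ndc80 and Nuf2 form the microtubule-binding dimer. Ndc80 had 17.2 FPKM in HU plus nanocages, 15.2 FPKM in HU and 22.6 FPKM in control, and was 1.49-fold lower in HU (1.34 to 1.66). Nuf2 had 12.7, 12.5 and 16.9 FPKM in the same order and was 1.36-fold lower in HU (1.27 to 1.46). Spc24 and Spc25 form the dimer that docks on the inner kinetochore and were nearer to control. Spc25 had 16.1 FPKM in HU plus nanocages, 14.7 FPKM in HU and 16.4 FPKM in control, with a ratio of HU over control of 0.895 (0.813 to 0.986). Spc24 had 32.9, 31.5 and 29.1 FPKM in the same order, with a ratio of 1.08 (0.973 to 1.2). The Spc24 level was 1.91 times that of Ndc80 in HU plus nanocages, 2.08 times in HU and 1.29 times in control, and this pair too was chosen after its values were seen.

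All 3 SKA genes had intervals below 1 in HU against control, beside 20.5% of all genes. Ska2 had 10.2 FPKM in HU plus nanocages, 9.61 FPKM in HU and 16.9 FPKM in control, and was 1.76-fold lower in HU (1.58 to 1.96). It shares 10.1% of its exonic bases with Gm11491 on the opposite strand, which had 1 read in HU plus nanocages, 2 in HU and 1 in control. Ska1 was 1.45-fold lower (1.27 to 1.66) and Ska3 1.34-fold lower (1.19 to 1.5). Knstrn encodes SKAP, a spindle and kinetochore partner of astrin. It had 14.4 FPKM in HU plus nanocages, 13.5 FPKM in HU and 20.2 FPKM in control, and was 1.49-fold lower in HU (1.39 to 1.6), just short of the 1.5-fold line.

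Of the 4 corona genes among the members, 3 were at least 1.5-fold lower in HU than in control, beside 2.40% of all genes. Cenpf had 589 reads in HU plus nanocages, 541 in HU and 1627 in control, or 2.05, 1.75 and 7.03 FPKM. The gene, at chr1:189640606-189688086 on the minus strand, was 4.02-fold lower in HU than in control (3.65 to 4.44), the lowest ratio of the 35 genes. Cenpe, the kinesin that carries chromosomes to the spindle equator, had 7.96 FPKM in HU plus nanocages, 7.68 FPKM in HU and 15.7 FPKM in control, and was 2.04-fold lower in HU (1.90 to 2.19). Spdl1, which encodes the dynein adaptor Spindly, had 9.33, 9.28 and 15.2 FPKM in the same order and was 1.64-fold lower in HU (1.48 to 1.82). Zwilch, a subunit of the RZZ complex that recruits Spindly, was level with control: it had 24.8 FPKM in HU plus nanocages, 23.7 FPKM in HU and 24.7 FPKM in control, and its ratio of HU over control was 0.961 (0.9 to 1.03). Zw10 and Kntc1, which encode the other RZZ subunits, are not members and are left out of the corona counts and sums here. Their ratios of HU over control were 0.847 (0.804 to 0.891) and 0.975 (0.916 to 1.04), so neither was 1.5-fold lower.

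**Figure D2:**
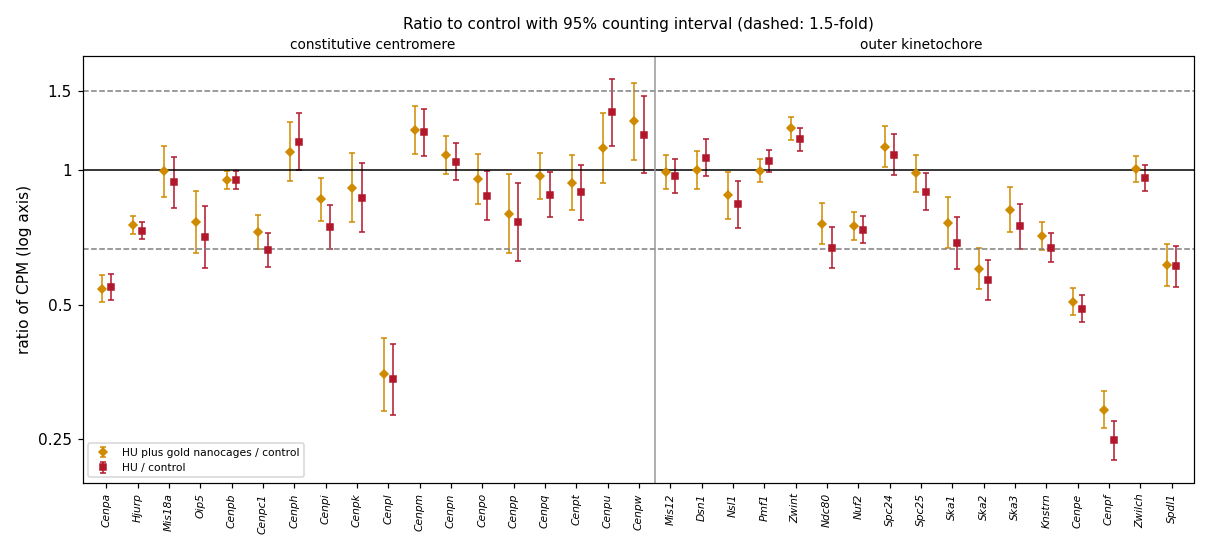
Ratio of CPM to control on a log axis for HU plus nanocages (diamonds) and HU (squares), with 95% counting intervals as bars and dashed lines at 1.5-fold. Cenpf and Cenpl lie lowest in both ratios, Cenpu is the highest for HU at 1.35, and no point passes the upper dashed line; both ratios share the control library.

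Outer kinetochore genes had a lower median than constitutive genes, but both sets were wide and overlapped. The median log2 ratio of HU over control was -0.42 for the 17 outer genes, which ran from -2.01 for Cenpf to 0.23 for Zwint. For the 18 constitutive genes it was -0.19, with a range of -1.55 for Cenpl to 0.43 for Cenpu. At least 1.5-fold lower were 4 of 17 outer (23.5%) and 3 of 18 constitutive genes (16.7%), beside 2.40% of all genes. Cenpc1, a constitutive gene, lay just past this line, and the outer genes Ndc80 and Knstrn just short of it. Summed over genes, the outer set took 1003 CPM in HU and 1280 CPM in control, a ratio of 0.784 (0.769 to 0.8), and the constitutive set 869.0 CPM in HU and 1074 CPM in control, a ratio of 0.809 (0.792 to 0.827). Summed over the members of each complex, the ratio of HU over control was 0.564 (0.543 to 0.587) for the corona. It was 0.655 (0.613 to 0.7) for SKA, and 0.688 (0.665 to 0.712) for CENP-A and its loading. It was 0.812 (0.776 to 0.849) for NDC80, 0.872 (0.842 to 0.904) for the constitutive network and 1.01 (0.968 to 1.05) for MIS12. Position in the kinetochore thus did not order the genes: the level MIS12 complex is outer, and the low Cenpa and Cenpl are constitutive.

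The promoters printed above were searched with those of the other members, from 250 bases before to 50 bases after the start. RefSeq windows were found for 31 members, and those of Nsl1, Ska1, Spc24 and Zwilch were not analysed here. Cenpk has 3 windows, which makes 33. TTTGAA on either strand was present in 12 of 33 windows (36.4%), beside 17.9% of all 32851 windows and 11.9% of the 10126 windows of genes tested here. Within 50 bases of the start it was present in 10 of 33 (30.3%), beside 4.94% of all windows and 3.22% of those of genes tested. In the sequences above it begins at base 3 of the transcript of Cenpf, base 17 of Cenpa and base 2 of Spdl1. In Cenpl it begins at base -162, outside the printed run, and it is absent from the 300-base windows of Cenpe, Ska2 and Cenpc1.

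Members with and without this match overlapped in their ratios. The 12 genes with TTTGAA had a median log2 ratio of HU over control of -0.47 and ran from -2.01 to 0.26, while the 19 without it had a median of -0.18 and ran from -1.03 to 0.43. Of the 12, Cenpn, Pmf1 and Cenpw had log2 ratios above 0, and Cenpe, Ska2 and Cenpc1 were at least 1.5-fold lower without the match. Over all genes tested with a window, the median was -0.04 for the 1127 with the match and -0.00 for the 6800 without it. CCAAT was present in 23 of 33 member windows (69.7%), beside 37.4% of all windows and 38.2% of those of genes tested. All 7 members at least 1.5-fold lower in HU hold it, as do Zwint, Cenpm and Cenpu, whose intervals lay above control. GCGGGAA was present in 10 of 33 windows (30.3%), beside 4.60% of all windows and 8.67% of those of genes tested, and TTTGGCG in 1, that of Cenpl, beside 1.56% and 2.76%. The 10 genes with GCGGGAA had a median log2 ratio of -0.13 and the 21 without it -0.42. Among the 66 matches in member windows 1 pair shares a base, CCAAT and TTTGAA in Cenpw. A match in these letters is a description of the window, and no binding was measured here.

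**Figure D3:**
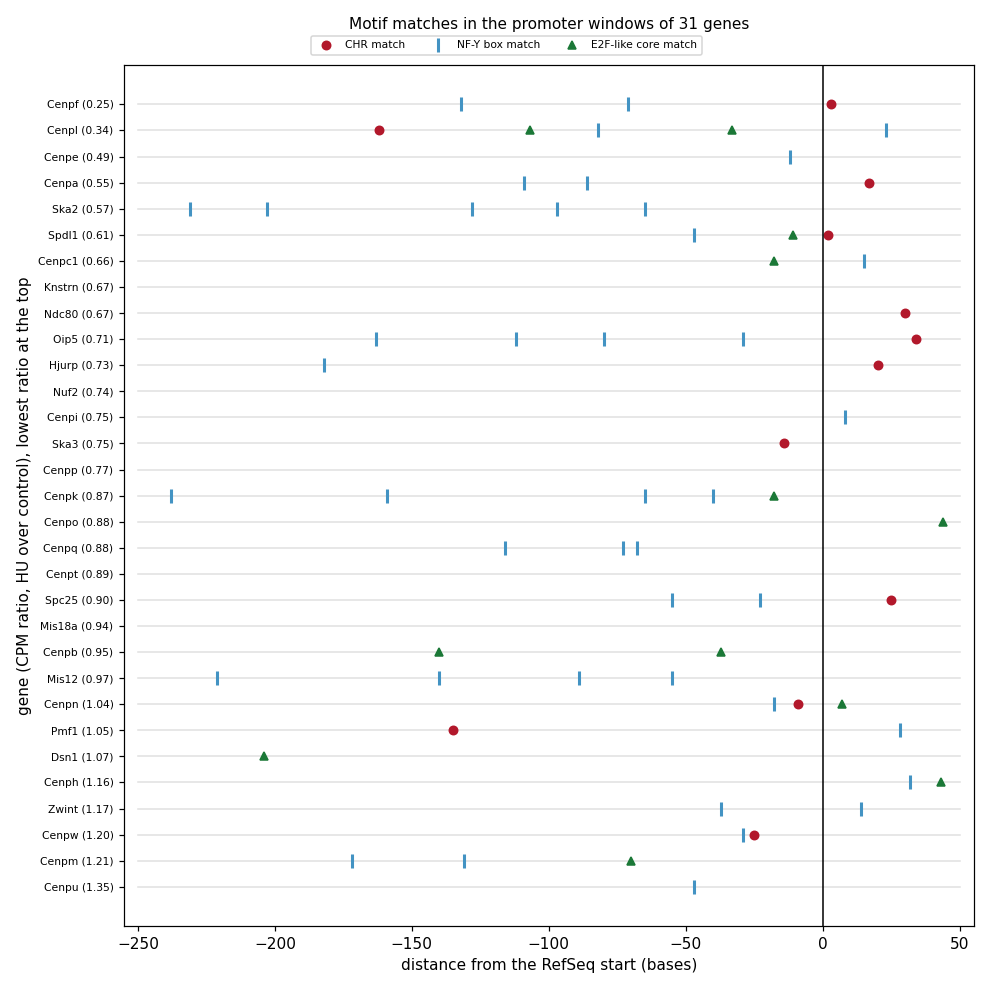
Motif matches by distance in bases from the RefSeq start for the 31 genes with a window, ordered from the lowest ratio of HU over control at the top, with the ratio in brackets. Circles are CHR matches, bars NF-Y box matches and triangles E2F-like core matches, and the line of Cenpk combines 3 windows; CHR matches crowd around the start in 10 genes, which lie along most of the order from Cenpf at the top to Cenpw near the bottom.

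Other kinetochore genes, listed with earlier results of these data known, were also mostly lower in HU. Of 26 genes of the kinetochore and its checkpoint that are not members, 11 (42.3%) were at least 1.5-fold lower, beside 2.40% of all genes, and none was at least 1.5-fold higher, beside 4.17%. Intervals lay below 1 for 19, beside 20.5% of all genes, and above 1 for 3, beside 19.4%. Their median log2 ratio was -0.37, beside -0.20 for the 35 members, and this difference was not tested. The lowest after the mitotic kinase Plk1, at -2.31, were Kif18a, a kinesin that dampens chromosome movement, at -1.52, Sgol2a, a shugoshin that protects centromeric cohesion, at -1.46, the microtubule depolymerase Kif2c at -1.39 and Sgol1 at -1.11. Casc5, which encodes KNL1, the partner of ZWINT, was 1.59-fold lower in HU, at 7.23 FPKM in HU plus nanocages, 7.05 FPKM in HU and 11.2 FPKM in control. The ratio of Zwint thus lay above that of Casc5.

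Cell cycle lists moved with these results, and their part in them was not tested. The lists were chosen with earlier results of these data known, so their counts are no separate evidence. All 20 genes of a G2/M list had intervals below 1 in HU against control, beside 20.5% of all genes. Their median log2 ratio was -0.88, with a range of -2.31 to -0.30. Of 20 genes of a G1/S list, 19 had intervals above 1 and none below, beside 19.4% and 20.5% of all genes. Their log2 ratios ran from -0.02 to 1.16 around a median of 0.28. The members reached into both ranges. Cenpf, Cenpl, Cenpe, Cenpa, the SKA genes, Spdl1, Cenpc1, Knstrn, Ndc80, Oip5, Hjurp, Nuf2, Cenpi and Cenpp lay inside that of the G2/M genes. The 9 members with a log2 ratio above 0 lay inside that of the G1/S genes. Plk1 and Bub1 are in both the G2/M list and the list of other kinetochore genes.

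HU plus nanocages was then set against HU, to see what gold nanocages change beside the drug. The differences were small: no member was at least 1.5-fold lower or higher, beside 0.426% and 0.593% of all genes. Intervals lay above 1 for 6 members (17.1%, beside 8.57% of all genes) and below 1 for 1 (2.86%, beside 7.95%). Among the 6, Cenpc1, Spc25 and Zwint had lower bounds just above 1, and these counts were not recomputed under other scalings. Of the 35 log2 ratios, 29 were above 0, or 82.9%, beside 51.6% for all genes. The median was 0.07 for the members and 0.00 for all genes tested, 0.03 for the G2/M list and -0.02 for the other kinetochore genes. The median for constitutive genes was 0.07 and that for outer genes also 0.07.

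The 4 members farthest apart were Cenpu, Cenpf, Cenpi and Ndc80. Cenpu was lower with nanocages, at 4.37 FPKM against 5.26 FPKM in HU, a ratio of 0.831 (0.711 to 0.970). Cenpf was higher, at 2.05 FPKM with nanocages against 1.75 FPKM in HU, a ratio of 1.17 (1.04 to 1.32). Cenpi had a ratio of 1.15 (1.03 to 1.29) and Ndc80 one of 1.13 (1.02 to 1.26). In each of these 4 the library with nanocages lay between HU and control. The HU library is shared with HU against control, and the 4 were chosen for their distance from it. Their place between HU and control is therefore no separate evidence of a return toward control. The further intervals above 1 were those of Cenpc1 at 1.10 (1.00 to 1.2), Spc25 at 1.10 (1.00 to 1.2) and Zwint at 1.06 (1.00 to 1.11), whose lower bounds lie just above 1. Cenpf, the lowest member in HU against control, is thus among those higher with nanocages. For the next 3 in that order the interval included 1: Cenpl had a ratio of 1.03 (0.825 to 1.28), Cenpe one of 1.04 (0.959 to 1.12) and Cenpa one of 0.992 (0.923 to 1.07).

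**Figure D4:**
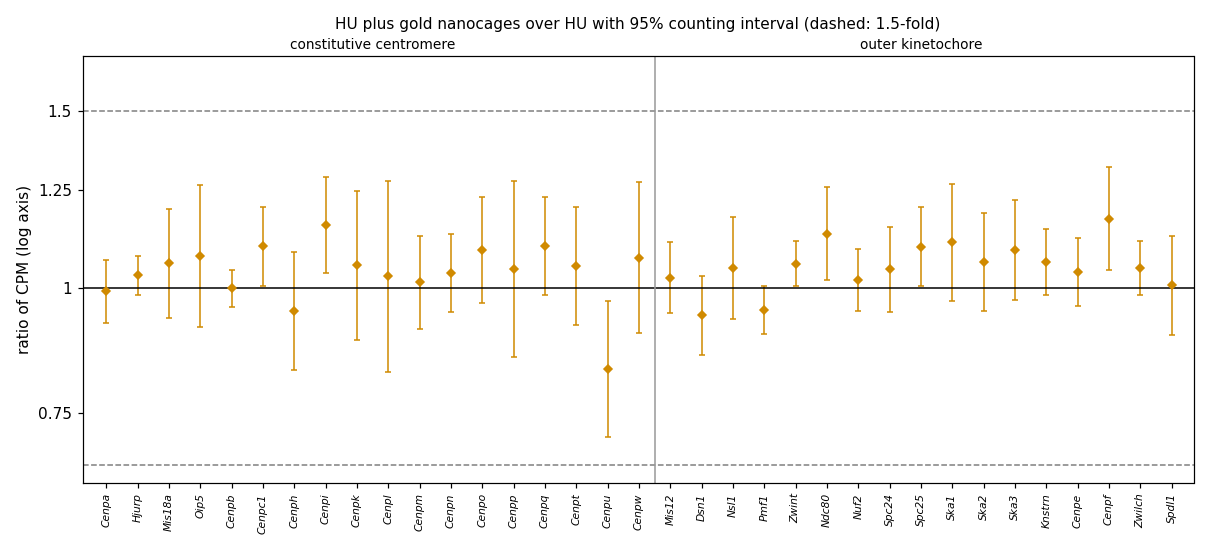
Ratio of CPM of HU plus nanocages over HU on a log axis for the 35 genes, with 95% counting intervals as bars and dashed lines at 1.5-fold. All points lie between the dashed lines, from 0.831 for Cenpu to 1.17 for Cenpf, and 29 lie above 1.

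HU plus nanocages against control shares its control library with the HU comparison, so its values are given for themselves. At least 1.5-fold lower were 6 members (17.1%), beside 2.33% of all genes, and 2 were lower at 2-fold, beside 0.602%. None was at least 1.5-fold higher, beside 4.59%. Intervals lay below 1 for 18 (51.4%, beside 20.4%) and above 1 for 4 (11.4%, beside 20.3%). The 6 genes were Cenpf, Cenpl, Cenpe, Cenpa, Ska2 and Spdl1. Cenpf was 3.44-fold lower with nanocages than in control (3.12 to 3.78), Cenpl 2.86-fold lower (2.38 to 3.45), and Cenpe 1.97-fold lower (1.83 to 2.11). Cenpc1, at 1.37-fold lower (1.26 to 1.5), was not among them. The 4 genes with intervals above 1 were Zwint at 1.24 (1.17 to 1.32), Cenpm at 1.23 (1.09 to 1.39), Cenpw at 1.29 (1.06 to 1.57) and Spc24 at 1.13 (1.01 to 1.26). The median log2 ratio was -0.29 for outer and -0.08 for constitutive genes.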

How the data were processed

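RNA of 3 cultures of RAW264.7 cells was sequenced in paired-end libraries, 1 per group, made from 1 µg of RNA per the labels. The authors deposited a table of raw, whole-number counts per gene. Its FPKM columns, checked against the deposited counts, follow from each count, the gene's exonic size and the library sum for 100% of genes. The exonic gene size in the deposited table is an other kind of value, a length in bases. The submitters' processing notes name HTSeq 0.6.1, DESeq, HISAT2 2.0.1, cutadapt, SAMtools 0.1.18 and bcl2fastq 2.17.1.14, and build mm10. No source used here gives their settings, the annotation or the strand setting.

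Folds are ratios of CPM without a pseudocount, with exact (Clopper-Pearson) 95% intervals from the reads of both libraries. Reads carry no molecular identifiers, so intervals cover counting error only, and a count of 0 allows up to 3 reads. Shares over all genes use 10793 symbols with at least 100 summed reads, each at its identifier with the most reads. Coordinates and overlaps came from GENCODE M21, which holds 98.2% of the identifiers. In it 12 members share exonic bases with a gene on the opposite strand, 4 of them over more than 10% of their exonic bases in 1 overlap. Promoters are RefSeq windows of GRCm38.p6. Scaling factors came from edgeR 4.0.16 and DESeq2 1.42.0, without a test, and intervals from SciPy 1.17.1. The ratio and interval were tested on simulated counts that held counting error only, so spread between cultures was not part of that test.

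The members and lists were chosen with earlier results of these data known. Named in full are the 8 lowest and 6 highest members in HU against control and the 4 farthest apart in HU plus nanocages against HU. The others are named by role.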

Additional observations from a re-analysis of the deposited data

How the results depend on the processing

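Medians, and counts of members at least 1.5-fold apart, kept within 1.5 times or within the counting interval under median-of-ratios, TMM and upper-quartile scaling. They also did so under pseudocounts of 1 and 0.1 FPKM, with no filter or a mean FPKM of at least 1, and with identifiers of a symbol summed. Counts of intervals above or below 1 were not recomputed under these settings. The shares of all genes that the 1.5-fold counts are set beside moved more. With no filter on low counts, 8.32% of genes were at least 1.5-fold lower in HU and 8.42% in HU plus nanocages, both against control, and 7.90% in HU plus nanocages against HU. With a mean of at least 1 FPKM these shares were 3.12%, 3.25% and 1.32%, and with a pseudocount of 1 FPKM 1.30%, 1.26% and 0.0741%. A fold of 2 in place of 1.5 left 3 members lower in HU and 2 lower in HU plus nanocages, both against control. With a pseudocount of 1 FPKM the log2 ratio moved beyond its counting interval for Cenpf, to -1.55 in HU and -1.40 in HU plus nanocages, and for Cenpl, to -1.12 and -1.10, all against control. No scaling moved the median of all genes by more than 0.1. Leaving out a replicate was not possible, since each group is 1 library. No paired analysis was possible because no group has a second library. Genes with few reads, such as Cenpp with 196, 202 and 197 reads in HU plus nanocages, HU and control, have wide intervals, and differences within them were not detectable at this depth.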
